A study of Mus musculus with 45 samples.

Results

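The 10 genes described here are Hoxc4, Hoxc5, Hoxc6, Hoxc8 and Hoxc9 of the Hoxc cluster and Hoxd1, Hoxd3, Hoxd4, Hoxd8 and Hoxd9 of the Hoxd cluster, picked by symbol from the 33924 genes listed in each of 2 RNA-seq tables. All 10 were found in both tables, and all 10 varied over the samples and entered the tests. They were measured in mouse D3 embryonic stem cells (ESCs) of strain 129, grown without feeder cells. The cells were either treated with retinoic acid (RA, 2 µM for 48 h) or left in the vehicle dimethyl sulfoxide (DMSO, with these samples named ES). The study's routine ESC medium held leukaemia inhibitory factor (LIF), and whether LIF was present during the RA treatment is not stated. Every sample carried an engineered allele of the long non-coding RNA gene 5430416N02Rik, and no wild-type sample was among the 24 RNA-seq samples. In ΔG cells the gene body was replaced by a cassette holding GFP, an internal ribosome entry site and puromycin resistance. In ΔPG cells the gene body and about 2 kb of promoter before it were replaced by puromycin resistance under the PGK promoter. Each deletion was studied in heterozygous (het) and homozygous (hom) cells, which gave 8 groups of 3 biological replicates. The labels name no clone for the RNA-seq samples, so a genotype effect and a clone effect cannot be told apart.

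Hox genes encode homeodomain transcription factors that give cells their position along the head-to-tail axis of the embryo. They lie in clusters in which genes at the 3′ end act early and in anterior tissue, whereas genes at the 5′ end act later and more posteriorly. RA is a classical trigger of this opening: it binds the nuclear receptors RAR and RXR, which sit on pairs of a short half-site in the DNA of target genes, and 3′ Hox genes are among their best-known targets. In pluripotent cells the clusters are held silent by Polycomb proteins.

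All 10 genes read higher after RA than in ES cells in each of the 4 pairs of groups, and none was called lower. Called higher were 9 of 10 in het ΔG cells, where 17.7% of all tested genes were called higher, 8 in hom ΔG cells (17.0%), 8 in het ΔPG cells (18.0%) and 10 in hom ΔPG cells (16.5%). The largest differences were those of Hoxc8, Hoxc9 and Hoxc5. In both clusters the genes next in line, Hoxc10 and Hoxd10, were not called in any comparison. Hoxd10 stayed near its lowest value in most samples, so the lack of a call says little for it. Hoxc10 read higher after RA by less than the limit of 0.5 on the log2 scale. Between het and hom cells none of the 10 was called different, in either line and under either treatment. Hoxd3 alone was called in ES ΔPG cells once a trend with GC content was removed, a trend fitted only on genes of higher mean value. Values are regularised logarithms of normalised read counts (rlog, a log2 scale on which low genes are pulled towards their own mean, so that differences of low genes are understated). A gene was called when its Benjamini-Hochberg adjusted p over all tested genes was under 0.1 in limma and its log2 difference was over 0.5. The 2 tables, for ΔG and ΔPG cells, were normalised separately and are given side by side without a test between them.

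Some facts of the whole experiment bear on these values. The deleted gene followed its labels: 5430416N02Rik read 5.54 ± 0.04 (SD, n = 3) in het and 2.75 ± 0.11 in hom ES ΔG cells, and 4.60 ± 0.02 in het and 2.30 ± 0.14 in hom ES ΔPG cells. The ES samples carried most pluripotency markers at high level, but Dppa3 was low, at 0.76 to 1.80. Pou5f1, the core pluripotency factor, was at 11.48 to 11.53 in the 6 ΔG and 11.27 to 11.83 in the 6 ΔPG samples. After RA Pou5f1 was at 7.47 to 7.77 and 7.61 to 7.95. In ES ΔPG cells it was called lower in hom than in het samples, by -0.52 (limma, adjusted p = 1.77e-06). Replicates within a group correlated across genes at 0.998 to 0.999. Sequencing depth is unknown, as rlog values keep no totals.

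The Hox members were read against their own promoters first. RefSeq promoter sequences of build GRCm38.p6 run from 250 bases before to 50 bases after the start of the gene in RefSeq. They were found for 6 of the 10 genes, namely Hoxc4, Hoxd1, Hoxd3, Hoxd4, Hoxd8 and Hoxd9. The half-site AGGTCA, searched on both strands, was present in 4 of the 6 and in 16.3% of all 32851 promoters of the table. These 4 are printed to show where the half-site lies, and the promoter of Hoxd1, a gene with a clear rise whose window does not hold it, is printed beside them. All are on the plus strand, from Hoxc4 at chr15:103034145-103034444 through Hoxd3 at chr2:74711743-74712042, Hoxd4 at chr2:74721728-74722027 and Hoxd8 at chr2:74704365-74704664 to Hoxd1 at chr2:74762730-74763029, and capitals mark AGGTCA or its reverse complement TGACCT.
Hoxc4: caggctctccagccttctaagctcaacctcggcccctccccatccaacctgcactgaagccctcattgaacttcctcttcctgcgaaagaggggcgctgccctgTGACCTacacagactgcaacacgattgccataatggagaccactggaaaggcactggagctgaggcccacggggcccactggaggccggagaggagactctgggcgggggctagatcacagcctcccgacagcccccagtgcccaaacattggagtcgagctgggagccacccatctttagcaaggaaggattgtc
Hoxd3: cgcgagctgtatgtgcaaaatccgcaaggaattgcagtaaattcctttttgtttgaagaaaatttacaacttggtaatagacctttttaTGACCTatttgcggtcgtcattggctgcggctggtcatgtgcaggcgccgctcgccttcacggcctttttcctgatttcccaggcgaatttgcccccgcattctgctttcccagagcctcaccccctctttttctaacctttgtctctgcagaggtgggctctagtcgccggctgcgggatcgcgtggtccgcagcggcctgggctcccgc
Hoxd4: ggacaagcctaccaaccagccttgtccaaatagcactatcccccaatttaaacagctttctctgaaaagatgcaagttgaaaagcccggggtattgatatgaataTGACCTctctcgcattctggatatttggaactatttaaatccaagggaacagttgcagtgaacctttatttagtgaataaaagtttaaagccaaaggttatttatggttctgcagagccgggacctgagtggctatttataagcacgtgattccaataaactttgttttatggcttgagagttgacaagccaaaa
Hoxd8: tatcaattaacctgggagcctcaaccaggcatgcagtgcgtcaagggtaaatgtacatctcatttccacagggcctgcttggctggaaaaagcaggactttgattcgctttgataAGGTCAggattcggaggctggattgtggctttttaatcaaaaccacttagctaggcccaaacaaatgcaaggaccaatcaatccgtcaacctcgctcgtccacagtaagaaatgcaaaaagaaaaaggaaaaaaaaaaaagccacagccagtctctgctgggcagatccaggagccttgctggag
Hoxd1: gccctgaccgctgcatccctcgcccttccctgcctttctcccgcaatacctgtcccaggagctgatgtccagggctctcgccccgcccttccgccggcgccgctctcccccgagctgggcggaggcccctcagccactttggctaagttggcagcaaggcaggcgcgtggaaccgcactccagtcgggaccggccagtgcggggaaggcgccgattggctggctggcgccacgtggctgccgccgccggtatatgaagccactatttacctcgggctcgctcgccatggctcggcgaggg

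The half-site lay at -146 (its first printed base, counted from the RefSeq start) in Hoxc4, at -161 in Hoxd3, at -145 in Hoxd4 and at -135 in Hoxd8. For Hoxc4 the RefSeq start lies inside the gene model used for counting, downstream of the start of that model. It lay on the minus strand in the first 3 and on the plus strand in Hoxd8. The second form of the half-site, AGTTCA, was present in Hoxc4 only (14.0% of all promoters). Direct repeats of AGGTCA with a spacing of 5 or of 2 bases, and of AGTTCA with a spacing of 5, were in none of the 6 windows, and each was present in at most 0.0244% of all promoters. The promoters also differed in base composition, with 29 CpG dinucleotides in Hoxd1, 20 in Hoxd3 and in Hoxd9, 9 in Hoxc4, 6 in Hoxd8 and 4 in Hoxd4, against a median of 7 over the table. The CCAAT box was in 5 of the 6 windows, all but Hoxd9, against 37.4% of all promoters, and TATAAA was in Hoxd4 only (13.6%). These are matches of letters in a short window, and no binding was measured there.

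Hoxc8, Hoxc9 and Hoxc5 had the largest differences of the 10 in each comparison. Hoxc8, which patterns the thoracic skeleton and the motor neurons of the forelimb level, read 2.80, 2.76 and 2.79 in the 3 het ES samples of the ΔG line and 4.97, 4.69 and 4.69 in the het RA samples. In hom ΔG cells Hoxc8 read 2.85, 3.24 and 2.79 in ES and 4.77, 4.64 and 4.82 after RA. Every RA sample lay above every ES sample by more than the spread within either group. In ΔPG cells Hoxc8 went from 2.39, 2.79 and 2.49 (het ES) to 5.00, 4.75 and 5.02 (het RA), and from 2.57, 2.68 and 2.67 (hom ES) to 4.30, 4.89 and 4.90 (hom RA). The first hom RA replicate was the lowest of the 6 RA samples of that line and still well above all ES samples. The log2 difference of Hoxc8 was 2.00 (SE 0.125, adjusted p = 1.42e-08) in het ΔG, 1.78 (SE 0.146, adjusted p = 9.5e-09) in hom ΔG, 2.37 (SE 0.145, adjusted p = 5.99e-06) in het ΔPG and 2.06 (SE 0.183, adjusted p = 2.58e-06) in hom ΔPG cells.

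Hoxc9, a trunk gene that sets thoracic motor neuron identity, behaved much like its neighbour. In ΔG cells it read 2.85, 3.06 and 3.10 in het ES, 5.03, 4.74 and 4.76 in het RA, 2.99, 2.80 and 3.20 in hom ES and 4.85, 5.18 and 4.78 in hom RA samples. In ΔPG cells the values were 2.92, 2.43 and 2.83 in het ES, 4.73, 4.37 and 4.79 in het RA, 2.61, 2.92 and 2.90 in hom ES and 4.17, 4.74 and 4.77 in hom RA samples. ES and RA samples did not overlap in either line. The differences were 1.84, 1.94, 1.91 and 1.75 in het ΔG, hom ΔG, het ΔPG and hom ΔPG cells, with SE from 0.131 to 0.192 and adjusted p from 4.09e-09 to 5.99e-05.

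Hoxc5, a gene of the cervical and upper thoracic level, rose by 1.51 in het and 1.30 in hom ΔG cells and by 1.88 in het and 2.18 in hom ΔPG cells. Its ES samples were tight, at 2.81 to 3.03 over the 6 ΔG and 2.76 to 2.98 over the 6 ΔPG samples. The RA samples spanned 4.05 to 4.64 in ΔG cells and 4.54 to 5.17 in ΔPG cells, clear of the ES range in both. Of the exonic length of Hoxc5, 15.4% (449 bp) is shared on the same strand with the transcript Gm20398, and how reads there were assigned is not given in the sources used here.

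Hoxc4, the 3′ end gene of its cluster and a cervical one, varied most of the 5 Hoxc members among het ES ΔG samples (SD 0.48). Het ES ΔG samples read 2.99, 3.92 and 3.28 and hom ES ΔG samples 3.57, 3.38 and 3.66, while RA samples read 4.68, 4.50 and 4.32 in het and 4.40, 4.21 and 4.43 in hom cells. The second het ES replicate, at 3.92, was the ES sample nearest to the RA range, and the groups did not overlap. In ΔPG cells Hoxc4 read 2.57, 2.98 and 2.94 in het ES and 2.94, 2.90 and 2.87 in hom ES cells, and the RA samples were at 4.20, 3.99 and 4.08 in het and 4.49, 4.57 and 4.59 in hom cells. The differences were 1.10 (SE 0.2), 0.81 (SE 0.136), 1.26 (SE 0.147) and 1.65 (SE 0.138) in het ΔG, hom ΔG, het ΔPG and hom ΔPG cells. All 4 were called, with adjusted p of at most 0.000399.

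Hoxc6, which acts at the cervical to thoracic transition, changed least of the 5 Hoxc members. Its differences were 0.86 and 0.60 in het and hom ΔG cells and 0.55 and 0.58 in het and hom ΔPG cells, each called (adjusted p at most 0.0114). ES samples reached 2.22 in ΔG and 1.90 in ΔPG cells, and the lowest RA samples were at 2.47 and 2.02, so the ranges came close without touching. The calls in ΔPG cells were lost at 0.48 without the first het ES replicate, at 0.50 without the second het RA replicate and at 0.47 without the first hom ES replicate. Hoxc6 was also the lowest Hoxc member on the scale of level per length.

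**Figure D1:**
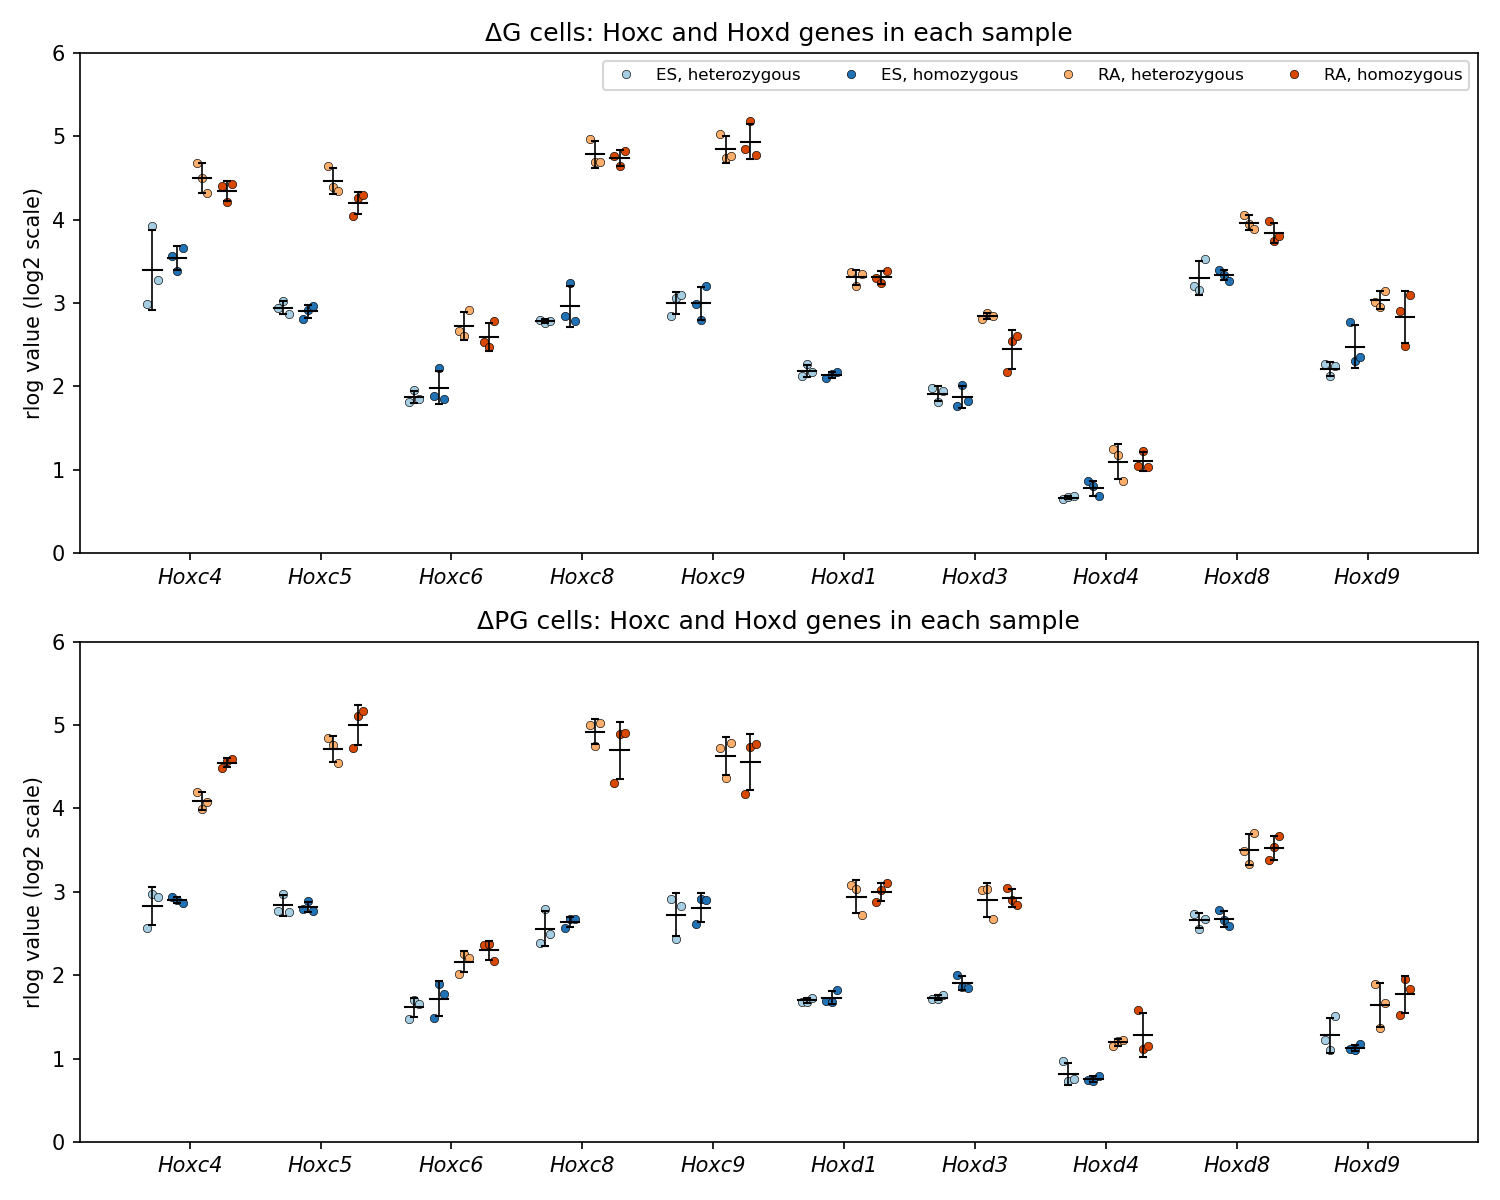
Rlog value (log2 scale, vertical axis) of each of the 10 genes in every sample, with ΔG cells and ΔPG cells in separate panels; each point is 1 sample, coloured by treatment and genotype, and the horizontal lines and bars are group means ± SD of 3 samples. RA group means lie above ES group means for every gene, and the samples of both genotypes together touch or overlap only for Hoxd4 in ΔG cells and for Hoxd9 in both lines.

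Among the Hoxd members Hoxd1 showed the cleanest separation. Hoxd1 is the 3′ end gene of its cluster and the most anterior in its action. In ΔG cells it read 2.12, 2.27 and 2.17 in het ES, 3.37, 3.21 and 3.35 in het RA, 2.10, 2.15 and 2.17 in hom ES and 3.30, 3.24 and 3.39 in hom RA samples. In ΔPG cells it read 1.68, 1.68 and 1.73 in het ES, 3.08, 3.03 and 2.72 in het RA, 1.69, 1.68 and 1.82 in hom ES and 2.88, 3.02 and 3.10 in hom RA samples. In each line 5 of the 6 ES samples were within 0.1 of the lowest value of the gene, and no RA sample was. Hoxd1 rose by 1.12, 1.17, 1.25 and 1.27 in het ΔG, hom ΔG, het ΔPG and hom ΔPG cells (SE 0.126 to 0.152, adjusted p at most 0.000142).

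Hoxd3 and Hoxd4 belong to the level of the hindbrain and neck, and their annotated exons share 1725 bp on the same strand, which is 67.4% of the exonic length of Hoxd4 and 29.8% of that of Hoxd3. How reads in the shared part were assigned is not given in the sources used here. Hoxd3 read 1.98, 1.81 and 1.95 in het ES and 2.81, 2.88 and 2.85 in het RA samples of the ΔG line, against 1.77, 2.02 and 1.83 in hom ES and 2.17, 2.55 and 2.61 in hom RA samples. The hom RA samples sat below all het RA samples. In ΔPG cells Hoxd3 read 1.72, 1.71 and 1.76 in het ES, 3.02, 3.03 and 2.67 in het RA, 2.00, 1.86 and 1.85 in hom ES and 3.04, 2.90 and 2.84 in hom RA samples. Its differences were 0.93, 0.57, 1.18 and 1.02 in the same order of groups as for Hoxd1, all called (adjusted p at most 0.00374), and the 0.57 of hom ΔG cells fell to 0.49 without the third hom RA replicate.

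Hoxd4 was called in hom ΔPG cells only. It read 0.65, 0.67 and 0.68 in het ES, 1.25, 1.18 and 0.86 in het RA, 0.86, 0.80 and 0.68 in hom ES and 1.04, 1.23 and 1.03 in hom RA samples of ΔG cells. In ΔPG cells its ES samples were at 0.73 to 0.97 and its RA samples at 1.11 to 1.58. Within each pair of groups RA lay above ES, but the differences of 0.43, 0.32 and 0.38 in het ΔG, hom ΔG and het ΔPG cells stayed under the 0.5 limit, with adjusted p of 0.0114, 0.0328 and 0.012, the first passing at 0.55 without the third het RA replicate. In hom ΔPG cells the difference was 0.53 (SE 0.14, adjusted p = 0.00876), and it fell to 0.38 without the first hom RA replicate.

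Hoxd8 and Hoxd9, which pattern the trunk and the proximal limb, moved less than their Hoxc counterparts. Hoxd8 rose from 3.16 to 3.53 in ES to 3.74 to 4.06 after RA over the 6 and 6 samples of ΔG cells, and from 2.56 to 2.78 to 3.33 to 3.70 in ΔPG cells. Its differences were 0.67, 0.51, 0.85 and 0.85 in het ΔG, hom ΔG, het ΔPG and hom ΔPG cells, each called, and the one in hom ΔG cells fell to 0.43 without the first hom RA replicate and to 0.47 without the third hom ES replicate, under the limit. Hoxd9 split by group: it was called in het ΔG (0.83, SE 0.127, adjusted p = 9.68e-05) and hom ΔPG cells (0.64, SE 0.145, adjusted p = 0.00333), and not in hom ΔG (0.35, adjusted p = 0.106) or het ΔPG cells (0.36, adjusted p = 0.121). Both of the latter passed without the second RA replicate of their group, at 0.52 and 0.50. In hom ΔG cells Hoxd9 read 2.77, 2.31 and 2.35 in ES and 2.90, 2.49 and 3.10 after RA. In het ΔPG cells it read 1.22, 1.10 and 1.51 in ES and 1.89, 1.37 and 1.67 after RA. ES and RA samples overlapped in these 2 pairs of groups and in no other pair for any of the 10 genes.

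Counted over all members, RA and ES samples did not overlap for 10 genes in het ΔG cells, 9 in hom ΔG, 9 in het ΔPG and 10 in hom ΔPG cells, always with RA higher, where 31.2%, 29.2%, 30.6% and 29.7% of all tested genes were higher without overlap. The median difference of the 10 was 1.01, 0.71, 1.21 and 1.15 in these 4 comparisons, against 0.04, 0.02, 0.01 and 0.01 over all tested genes. The 5 Hoxc members had medians of 1.51, 1.30, 1.88 and 1.75 and the 5 Hoxd members of 0.83, 0.51, 0.85 and 0.85, and the clusters were not tested against each other. The calls of the smaller differences depended on how samples were scaled: after quantile normalisation 4 members in place of 8 were called in hom ΔG cells and 6 in place of 10 in hom ΔPG cells, with all 10 differences still positive in each.

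The extent of the rise was then followed along each cluster (NCBIM37, the build known as mm9). The Hoxc genes lie at chr15:102751534-102867274 and the Hoxd genes at chr2:74506367-74603200, all on the plus strand. Of the 8 other Hox genes of both clusters, all numbered 10 to 13, the count called higher was 0, 0, 1 and 1 in het ΔG, hom ΔG, het ΔPG and hom ΔPG cells. Of all tested genes 17.7%, 17.0%, 18.0% and 16.5% were called higher. The count called lower was 1, 2, 2 and 1, against 11.7%, 12.1%, 13.6% and 11.3% of all tested genes called lower. Hoxc11, Hoxd10, Hoxd11 and Hoxd12 read at most 1.05 in any sample, so the lack of a call says little for them. Hoxc9 and Hoxc10 are separated by a gap of 4.55 kb. Across this gap the difference went from 1.75 or more for Hoxc9 to values between 0.19 and 0.48 for Hoxc10, none called. Hoxd9 and Hoxd10 are 2.57 kb apart, and the difference of Hoxd10 was 0.11 at most, at values close to its own lowest value.

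Hoxc12 and Hoxc13, the last genes at the 5′ end of their cluster, went the other way. Hoxc12 read 2.81 to 3.30 in the 6 ES and 2.00 to 2.24 in the 6 RA samples of ΔG cells, without overlap, and it fell by 0.96 in het ΔG, 1.07 in hom ΔG, 1.42 in het ΔPG and 0.90 in hom ΔPG cells, called in all 4 (adjusted p at most 0.00104). Hoxc13, a regulator of hair and nail keratins, was called lower in hom ΔG (-0.68) and het ΔPG cells (-0.79) and not in het ΔG (-0.34) or hom ΔPG cells (-0.40). In contrast Hoxd13, the digit gene at the 5′ end of its own cluster, was called higher in het (0.55) and hom ΔPG cells (0.59) and stood at 0.39 in both ΔG comparisons, not called.

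**Figure D2:**
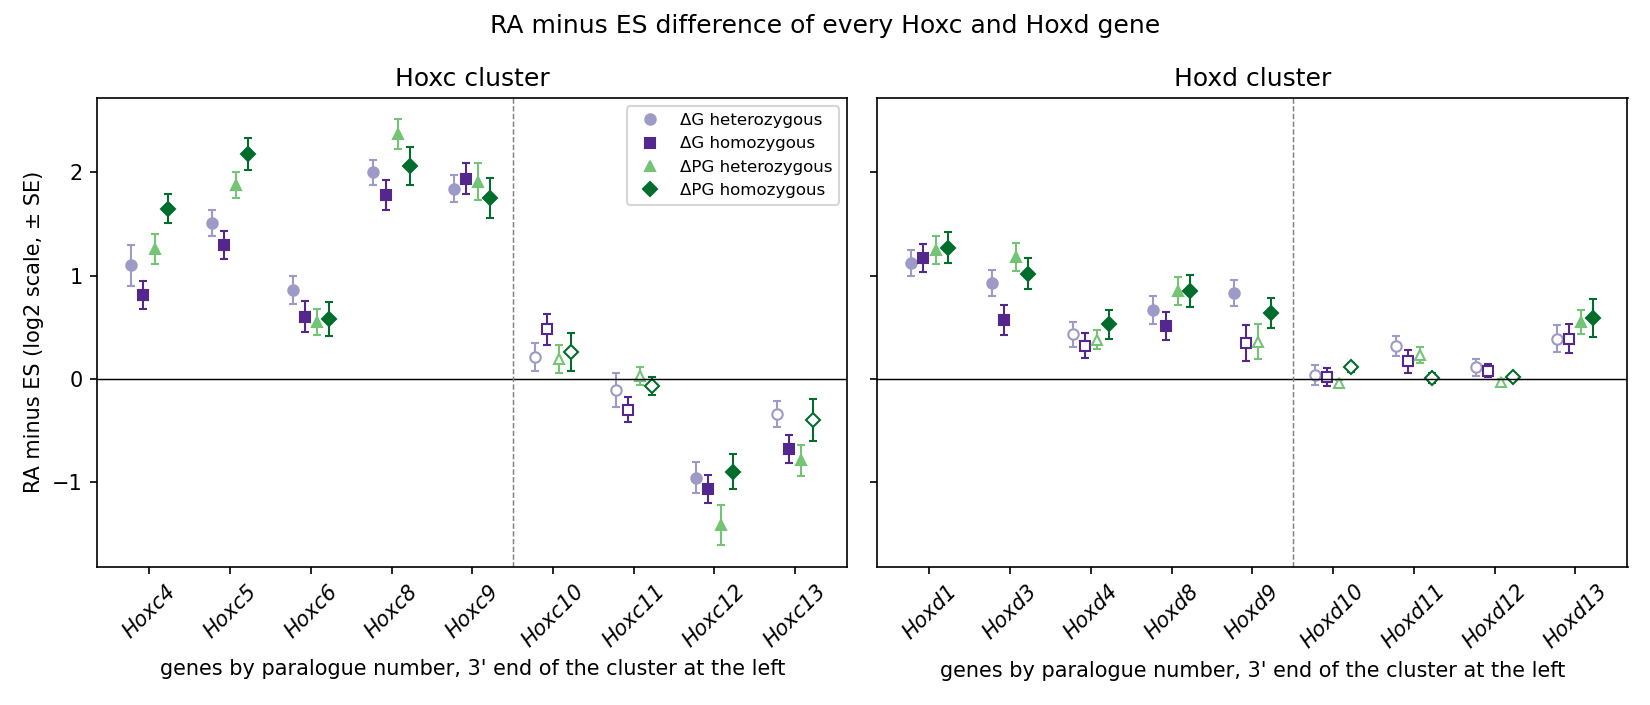
RA minus ES difference (log2 scale, vertical axis, ± SE) of every Hoxc and Hoxd gene, placed by its number along the horizontal axis with the 3′ end of each cluster at the left; marker shape and colour give the 4 comparisons, filled markers were called and open ones were not, and the dashed line stands between the genes numbered 9 and 10. Left of the line nearly all markers are filled and above 0, with open ones for Hoxd4 and Hoxd9, while on the right Hoxc12 lies below 0 in all 4 comparisons and Hoxd13 lies above 0.

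Within 50 kb of the clusters, 6 other annotated genes in ΔG and 7 in ΔPG cells could be tested of the 15 listed. The share of all tested genes called higher was 17.7%, 17.0%, 18.0% and 16.5% in het ΔG, hom ΔG, het ΔPG and hom ΔPG cells. Near that share, 1 name was called higher in each comparison. In het ΔPG cells it was U6, a name that many gene copies share, and in the other 3 comparisons it was 6720416L17Rik, a transcript on the minus strand between Hoxd3 and Hoxd1 (chr2:74586479-74600953), with differences of 0.79 in het ΔG, 0.50 in hom ΔG, 0.47 (not called) in het ΔPG and 0.82 in hom ΔPG cells.

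Levels between genes were compared per length, as rlog minus log2 of the exonic length in kb. In ES cells Hoxc4 stood first in all 4 groups, at 2.04 ± 0.48 (SD, n = 3) in het ΔG cells, where its lead over Hoxd8 (1.84 ± 0.20) was within the spread. In ΔPG ES cells Hoxc4, Hoxc9 and Hoxc8 followed each other within their spread. After RA the order changed: Hoxc8 (3.58 ± 0.16) and Hoxc9 (3.56 ± 0.16) led in het ΔG cells without differing beyond their spread, and Hoxc4 came next at 3.14 ± 0.18. In RA ΔPG cells Hoxc8 led as well, at 3.72 ± 0.15 in het cells, and in hom cells Hoxc8 (3.49 ± 0.34), Hoxc5 (3.46 ± 0.24), Hoxc9 (3.28 ± 0.34) and Hoxc4 (3.20 ± 0.05) followed each other within their spread. On the full exonic length Hoxd3 and Hoxd4 were last in each group, at 0.31 ± 0.04 and -0.26 ± 0.21 in het RA ΔG cells. Of the 2560 bp of Hoxd4 only 835 are free of the overlap with Hoxd3, so its place in this order depends on the length used. Hoxd8 held rank 2 in ES cells and rank 5 after RA in the het ΔG line. Its lead of 0.12 over Hoxc9 in those ES cells was within the spread. In ΔPG cells of both genotypes Hoxd8 held rank 5 in ES and rank 6 after RA.

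**Figure D3:**
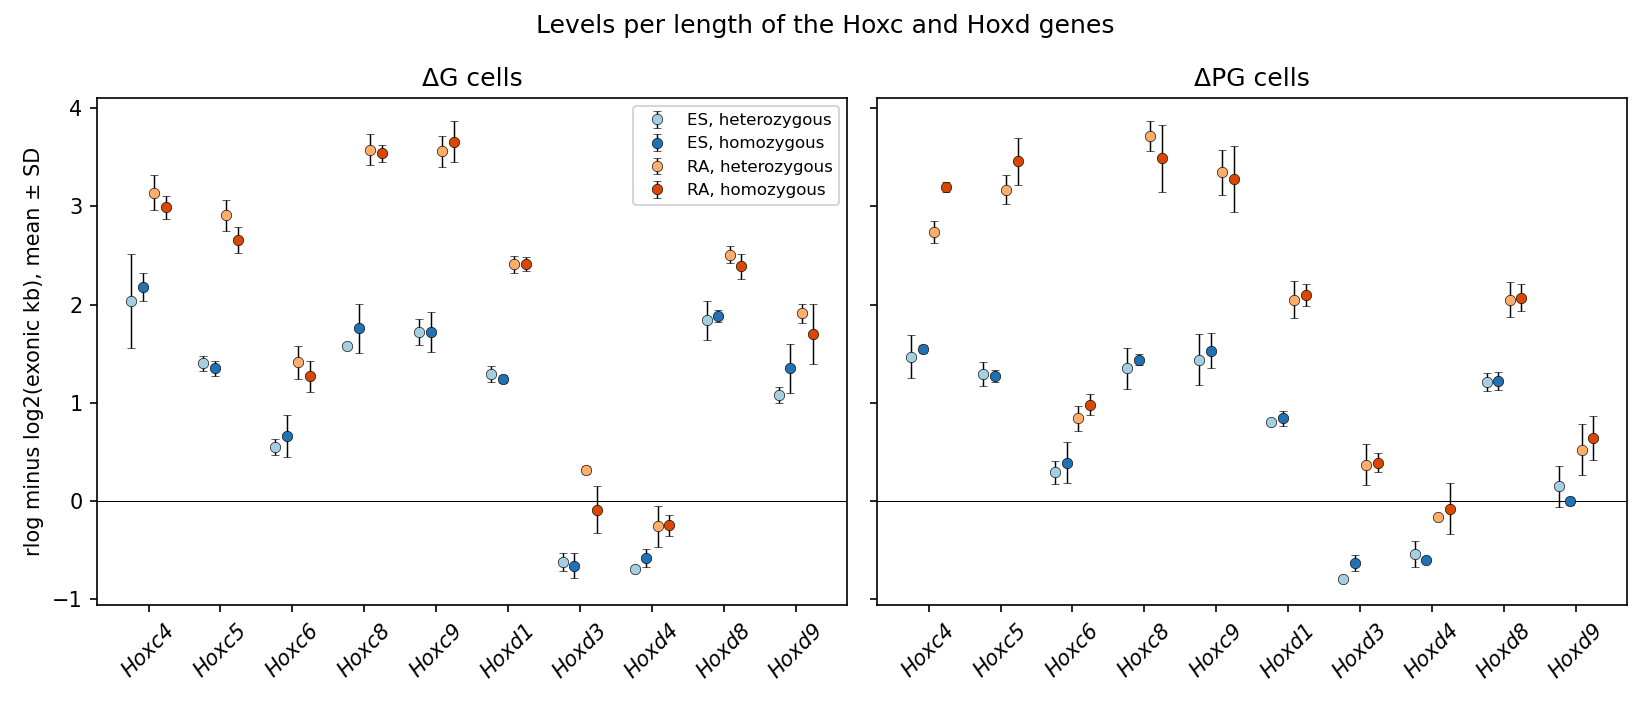
Level per length (rlog minus log2 of exonic kb, vertical axis) of the 10 genes in ΔG and ΔPG cells; points are group means, bars are SD over 3 samples, and colours give treatment and genotype. After RA Hoxc8 and Hoxc9 are at or near the top, joined by Hoxc5 in hom ΔPG cells, and Hoxd3 and Hoxd4 are lowest in each group when the full exonic length, shared exons included, is used.

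The question of whether the deletion altered these genes was addressed by comparing hom with het cells of the same line and treatment. None of the 10 was called in ES ΔG, RA ΔG, ES ΔPG or RA ΔPG cells, where 0.984%, 2.14%, 13.2% and 0.846% of all tested genes were called in either direction. In limma, members with an unadjusted p under 0.05 numbered 0, 1, 0 and 1. With the trend of the differences on GC content removed, Hoxd3 was called higher in hom ES ΔPG cells, at 0.55 in place of 0.17 (limma, adjusted p = 0.00172). That trend was fitted on genes with a mean rlog of at least 3 and then taken from all genes. Hoxd3 lay below the fitted genes, with ΔPG group means of 1.73 to 2.93, so its size for Hoxd3 is uncertain. The median difference of the members, without the GC step, was 0.08, -0.13, 0.05 and 0.07. These comparisons do not show that the genotypes are alike, and their 95% intervals bound what could have been missed.

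The 2 members with the smallest p were in RA cells. Hoxd3 in RA ΔG cells was at 2.81, 2.88 and 2.85 in het and 2.17, 2.55 and 2.61 in hom samples, a difference of -0.40 (95% interval -0.72 to -0.08, adjusted p = 0.131). In ΔPG cells after RA, Hoxd3 differed by 0.02 (95% interval -0.34 to 0.38). Hoxc4 in RA ΔPG cells was at 4.20, 3.99 and 4.08 in het and 4.49, 4.57 and 4.59 in hom samples, without overlap, a difference of 0.46 (95% interval 0.19 to 0.73, adjusted p = 0.0869) that passed the limit on p and not the one on size. In ΔG cells after RA, Hoxc4 differed by -0.15 (95% interval -0.43 to 0.13). For both genes the other line gave a value of the opposite sign with an interval that includes 0. Counts of members without overlap between genotypes were small, at 2 higher and 0 lower in ES ΔG cells (8.77% and 9.00% of all tested genes), 0 higher and 2 lower in RA ΔG cells (10.1% and 11.7%), 1 higher and 0 lower in ES ΔPG cells (18.7% and 20.9%) and 1 higher and 0 lower in RA ΔPG cells (9.93% and 8.87%). Among the other genes of the clusters, Hoxc12 and Hoxc13 were called lower in hom than in het ES ΔPG cells, by -0.54 (adjusted p = 0.0662) and -0.57 (adjusted p = 0.0232). Of the 8 extraembryonic endoderm markers, 3 were called lower in hom RA ΔG and 5 in hom RA ΔPG cells. In hom ES ΔPG cells 1 of these 8 was called lower, as were Pou5f1 (-0.52), the neural progenitor marker Nes (-0.65) and the trunk marker Cdx1 (-0.63). Cdx1 went the other way in hom RA ΔG cells, where it was called higher (0.91), as was 1 mesoderm and primitive streak marker. In hom RA ΔPG cells the pluripotency marker Klf4 was called lower (-0.61). The part of these markers in the member values was not tested.

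Whether the RA response itself differed between genotypes was tested with an interaction term over the 12 samples of each line. No member was called in ΔG cells (2.38% of all tested genes) or in ΔPG cells (13.9%), and at an unadjusted p under 0.05 limma gave 1 member in ΔG and 0 in ΔPG cells. That member was Hoxd9, whose rise was smaller in hom than in het ΔG cells by -0.47 (95% interval -0.93 to -0.02, adjusted p = 0.311). For Hoxc4 in ΔPG cells the term was 0.39 (95% interval -0.02 to 0.79, adjusted p = 0.174). With the GC trend removed, Hoxd3 was called lower in the ΔPG term, at -0.52 in place of -0.15 (limma, adjusted p = 0.0477). Here too Hoxd3 lay below the genes on which the trend was fitted. The called rise of Hoxd9 in het and not in hom ΔG cells is not shown to differ between them.

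**Figure D4:**
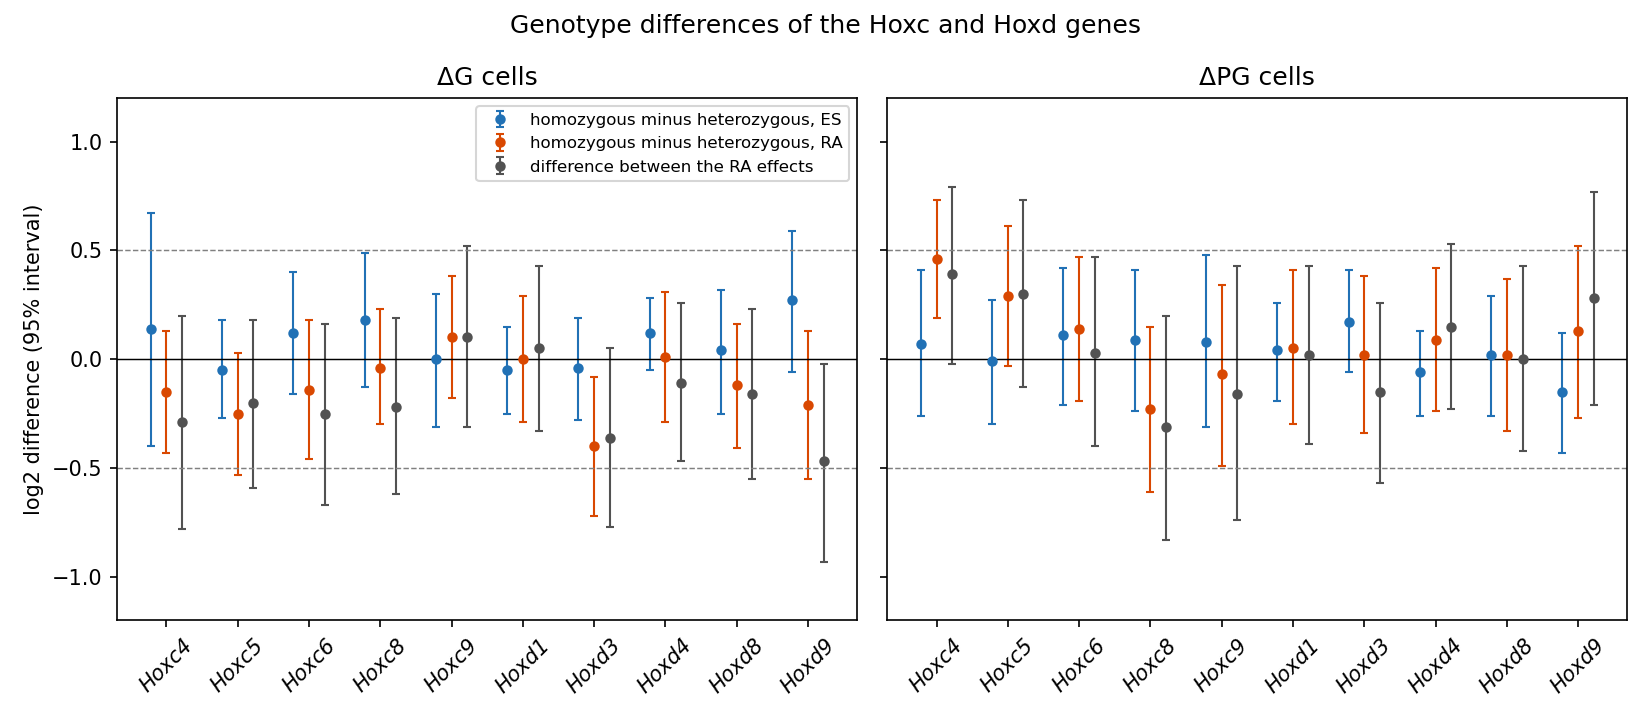
Hom minus het difference (log2 scale, vertical axis, with 95% intervals) of the 10 genes in ΔG and ΔPG cells; colours separate ES cells, RA cells and the interaction of genotype and RA. Nearly all intervals include 0, with Hoxd3 in RA ΔG cells below it, Hoxc4 in RA ΔPG cells above it, and the interaction of Hoxd9 in ΔG cells just below it.

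The members tracked each other mainly through the treatment. Over the 12 samples of a line, the correlation of each gene with the mean of the other 9 was 0.823 (Hoxd9) to 0.989 (Hoxd1) in ΔG and 0.826 (Hoxd4) to 0.992 (Hoxc5) in ΔPG cells. Once the group means were taken out, it ranged from -0.192 (Hoxd9) to 0.667 (Hoxd1) in ΔG and from -0.869 (Hoxd4) to 0.725 (Hoxd9) in ΔPG cells. These are descriptions over samples that share 2 treatments. The genes most like the mean profile of the members were Gm1673, Ogfr, Crabp2, Id3 and Robo2 in ΔG cells (r = 0.996 to 0.997 among 4437 genes searched) and Kif1a, Ror1, Csn3, Col1a1 and Klhdc8a in ΔPG cells (r = 0.997 to 0.998 among 5038). Such likeness was common, as 35.2% and 24.8% of the genes searched had r over 0.95.

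Other genes of the system were counted from lists of known names. Of 10 Hoxb genes, all 10 were called higher in all 4 comparisons, with medians of 2.39, 2.36, 2.21 and 2.32, and of 11 Hoxa genes 7, 6, 8 and 6 were, in the order het ΔG, hom ΔG, het ΔPG and hom ΔPG. Among 19 genes of RA transport, turnover and reception, 15, 13, 13 and 11 were called higher and 1 lower. Cyp26a1, which degrades RA, rose by 5.88, 5.54, 4.60 and 4.57, and Rarb, a receptor under RA control, by 2.41, 3.04, 2.72 and 2.52. The one called lower was the receptor Rarg, by -1.68, -1.56, -1.72 and -1.22. Among 12 partners and upstream factors of Hox proteins, 7, 7, 8 and 8 were called higher, including Meis1 (4.74, 4.88, 3.95 and 3.99), a homeodomain protein that binds DNA together with Hox proteins. Cdx1, a caudal-type factor that acts on Hox genes in the embryo, was called lower by -3.46, -2.90, -3.55 and -2.61.

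The cell population changed as well between ES and RA samples. Of 8 pluripotency markers 7, 7, 7 and 6 were called lower, and their mean rlog per sample went from 9.23 to 9.29 in ES to 6.14 to 6.29 in RA ΔG samples, and from 8.95 to 9.12 to 6.21 to 6.28 in ΔPG samples. All 8 extraembryonic endoderm markers, Gata4 and Gata6 among them, were called higher in all 4 comparisons, their mean going from 3.97 to 4.26 to 7.13 to 7.55 in ΔG and from 4.12 to 4.46 to 6.68 to 7.31 in ΔPG samples. Of the 6 neural progenitor markers tested, 3, 4, 4 and 4 were called higher, among them Pax6. The mean over the 7 found, Olig2 included, was 1.66 to 1.76 in ES and 2.47 to 2.68 in RA ΔG samples. In ΔPG samples this mean was 1.75 to 1.91 in ES and 2.60 to 2.69 after RA. Olig2 was listed at 0 in every sample, and Sox1, also picked as a neural progenitor marker, was not found and could not be read. Of the mesoderm and primitive streak markers 2 were called higher in each comparison (Meox1 and Hand1) and 2, 1, 2 and 2 lower, with a mean over all 8 listed, Mesp1 at 0 in ΔG samples included, of 1.52 to 1.68 in ES and 2.09 to 2.28 in RA ΔG samples and of 1.44 to 1.66 and 1.86 to 1.94 in ΔPG samples. T and Eomes went down: the median of T went from 2.86 to 2.07 in ΔG and from 4.02 to 2.54 in ΔPG samples. That of Eomes went from 4.86 to 4.28 and from 5.04 to 4.26. Mixl1 and Tbx6, both at low values, did not go down. The median of Mixl1 went from 0.49 to 0.73 in ΔG and from 0.71 to 0.91 in ΔPG samples. For Tbx6 it went from 0.46 to 0.71 and from 0.67 to 0.83. The median of Meox1 went up, from 3.29 to 7.76 in ΔG and from 3.00 to 6.29 in ΔPG samples. Of 6 neuromesodermal and trunk markers 0 were called higher and 2, 2, 3 and 2 lower, Cdx1 and Nkx1-2 in each, with a mean of 2.00 to 2.20 in ES and 1.00 to 1.39 in RA ΔG samples and of 2.67 to 2.89 and 1.58 to 1.74 in ΔPG samples. The part of these populations in the Hox values was not tested. In such bulk samples more cells expressing a Hox gene and more Hox RNA per cell cannot be told apart.

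Finally, the Hoxc and Hoxd clusters were located in the 4C-seq data of the study. 4C-seq (circular chromosome conformation capture) lists the genomic regions in contact with 1 chosen site, here about 1 kb before the start of 5430416N02Rik in ESCs, and it was done in 2 replicates. The study's methods name mm9 (NCBIM37) for the 4C reads. The region starts, however, matched HindIII sites only as GRCm38 positions (65 of 69 starts on both chromosomes after the shift between builds, 0 of 69 read as NCBIM37), so GRCm38 is used. The Hoxd cluster (chr2:74668225-74765142) lay inside a contact region in both replicates, at 74175636 to 77074983 (2.9 Mb) and 74283336 to 77132739 (2.85 Mb). The Hoxc cluster (chr15:102921131-103036856) did too, at 97285133 to 103943556 (6.66 Mb) and 96465162 to 103586050 (7.12 Mb). Being inside a region was common, as regions held 49.3% and 50.2% of the RefSeq genes of chromosome 2 and 62.8% and 58.0% of those of chromosome 15 in the 2 replicates. No value per gene was given there, and the regions say nothing on RA-treated cells.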

How the data were processed

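The authors sequenced ribosome-depleted, stranded total RNA as 100 bp paired-end reads, mapped them with TopHat2 (2.1.0) to mm9 (NCBIM37) with GENCODE vM1, removed duplicates with Picard, and counted reads per gene name with HTSeq (0.6.0). The deposited values are rlog values on a log2 scale, made by the authors with DESeq2 (1.14.1) for the 12 samples of each line on their own. The 4C-seq regions used here were deposited as start and end positions, and other assays of the series were not used. The 10 members, the gene lists and the marker lists were chosen with earlier results of these data known.

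The rlog values were fitted with limma (3.58.1, R 4.3.3; variance trend) over all genes that varied, 22048 in ΔG and 21979 in ΔPG cells. RA was compared with ES within a genotype, hom with het within a treatment (6 samples each), and the interaction was fitted on all 12 samples. p-values were Benjamini-Hochberg adjusted over all genes tested, and a gene was called at an adjusted p under 0.1 and a log2 difference over 0.5. The fit was tested on simulated data with known changes. Named genes were the 10 members, the other genes of both clusters, genes of the lists described, and per line the 5 genes with the highest Pearson correlation to the mean of the centred members among genes with a mean rlog of at least 3 and a range of at least 1. RefSeq promoters (GRCm38.p6) were searched for exact matches, and figures were drawn with matplotlib (3.10.9). Replicate numbers in the labels were checked for pairing: deviations of same-numbered samples from their group means correlated at -0.0255 to 0.0855. The labels call the samples replicates without naming separate cultures, so p-values measure the spread between these samples. Depth, and with it the counting error of low genes, is unknown. The alternatives were a joint fit of 12 samples, a replicate block, no variance trend, quantile normalisation, median centring, a filter on low values, all listed genes, stricter limits, no limit on size, removal of a GC trend, and leaving out each replicate.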

Additional observations from a re-analysis of the deposited data

How the results depend on the processing

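Over all alternatives, 660 values of RA against ES were recomputed for single members: 616 kept direction and side of the limits, 34 lost the call, 10 gained it and 0 changed sign. Calls were lost for 1, 4, 2 and 4 members in het ΔG, hom ΔG, het ΔPG and hom ΔPG cells. With a mean rlog of at least 3 only 5 members stayed in the test, and 5 were called in each of the 4 comparisons. Quantile normalisation left 4 called in hom ΔG and 6 in hom ΔPG cells. Over all genes it turned the split of higher and lower calls in het ΔG cells from 3911 and 2588 to 3042 and 3304, and median centring turned it to 3323 and 3274. In hom ΔG cells the split went from 3759 and 2675 to 2941 and 3305 and to 3247 and 3282. In hom ΔPG cells quantile normalisation turned 3634 and 2482 to 2864 and 2960. Without each replicate in turn, members called higher ranged from 9 to 10, 7 to 9, 7 to 8 and 9 to 10 in the 4 comparisons. The replicate block gave 9, 8, 8 and 10 called members and changed no member call, and the numbers did not pair the samples. Between genotypes and in the interaction, 80 of 1090 recomputed values took another sign, all of at most 0.34 in size. With the GC trend removed, with or without the replicate block, 1 member (Hoxd3) was called higher in hom than in het ES ΔPG cells and 1 (Hoxd3) lower in the ΔPG interaction. The mean rlog of Hoxd3 is under the limit of 3 used to fit that trend. With no limit on size, 1 (Hoxc4) was called higher in hom RA ΔPG cells. Leaving out 1 replicate gave 0 to 1 members called higher in the ΔPG interaction, the 1 being Hoxc4 at 0.51 without the first het ES replicate. The causes of these changes were not tested. The rlog transform understates differences of low genes, and with no depth given the size of this effect on Hoxd4, the lowest member, is unknown.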
